A study of Mus musculus with 4 samples.

Results

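The cadherins and protocadherins were followed across the cells of young and aged mouse lung, with and without mechanical ventilation. Members were the genes whose symbol was Cdh followed by a number, or began with Pcdh. This gave 92 of the 32285 genes counted, and the 75 members with at least 20 UMIs over the 4 libraries are described. A UMI is a unique molecular identifier, a tag that marks 1 captured transcript. The members closest to that limit were Cdh26 with 21 UMIs inside it and Cdh9 with 18 outside it. The described members were 5 classical type I cadherins, 11 type II cadherins, 5 other cadherins, 11 nonclustered protocadherins, and 1 alpha, 21 beta and 21 gamma protocadherins of the gene clusters on chromosome 18.

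Lung cells came from wild-type male C57BL/6 mice, in 1 library for each of 4 groups, with the cells of 3 mice pooled in each. The groups paired 2 ages, young (2 to 3 months) and aged (22 months), with 2 treatments, ventilated and nonventilated. Ventilated mice were anesthetized with ketamine and medetomidine, received buprenorphine, carried vascular lines, and were ventilated for 3 hours at a high tidal volume with pure oxygen and no positive end-expiratory pressure. Nonventilated mice were naïve, so ventilation cannot be told apart from anesthesia, surgery and oxygen. All mice were on a restricted diet and all cells had been frozen before capture. Since each group was 1 library, no test between groups was possible. Levels are UMIs per 1000000 UMIs of the class total (CPM), and 95% exact intervals in parentheses cover counting error only, as do the approximate intervals of differences between log2 ratios. Values in the 4 libraries are always given for young mice and then for aged mice, with the nonventilated library before the ventilated one at each age.

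Cadherins are calcium-dependent adhesion proteins whose extracellular repeats bind partners on neighboring cells. Classical cadherins such as E-cadherin (Cdh1) and VE-cadherin (Cdh5) anchor to the actin cytoskeleton through catenins, and VE-cadherin holds together the adherens junctions of the endothelial barrier. Protocadherins lack the catenin-binding tail. The clustered protocadherins are best known from neurons, where combinations of them give cells distinct surface identities.

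The 9514 cells retained from the 4 libraries fell into 22 classes, each named from fixed marker genes and best read as "X-like", plus unnamed clusters. Retained cells numbered 1960 to 2750 per library, with a median of 7237 to 8371 UMIs per cell, and members gave 15272 to 26921 UMIs per library. General capillary cells, the common cells of the alveolar capillary, numbered 560, 546, 500 and 323. Aerocytes, the large capillary cells specialized for gas exchange, numbered 220, 218, 126 and 111. All 8 pan-endothelial markers were detected in both. Nonventilated and ventilated cells of these classes lay mostly in different clusters: e0, e6 and e10 against e1 and e2 for general capillary cells, and e4 against e8 for aerocytes, with another, shallow aerocyte cluster in all libraries. The 2 ages also lay apart among ventilated general capillary cells, with 428 of 546 young cells in e1 and 263 of 323 aged cells in e2. Against the other endothelial cells, the general capillary markers had mean log2 ratios of 1.01 in e0, 0.58 in e6 and 0.58 in e10. In e1 and e2, the mostly ventilated clusters, they had -0.31 each, so these markers did not set those clusters apart from other endothelial cells. Interferon-induced genes such as Rsad2 and Ifit3 led e1, and Cxcl10 and Gdf15 were among those that led e8. Members were left out of the genes used for clustering. At most 3 retained barcodes were shared by any pair of libraries.

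The clustered genes carry a limit of counting. The 21 gamma protocadherin genes, like the 14 alpha genes, end in exons that their neighbors also use, so that 27.8% to 66.8% of the exonic bases of each gamma gene belonged to more than 1 gene. A 3′ read in a shared exon fits several genes, and single-gene counts therefore rest on the reads that could be placed in 1 gene. Of the 22 beta genes, 1 shared its end. The 14 alpha genes gave 154 UMIs in all, of which 120 were from Pcdhac2.

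Promoter sequences are shown for 3 members whose levels are described below and that RefSeq's GRCm38.p6 promoter windows include, to give the sequence next to the readout. Each window runs from 250 bases before to 50 after the start of the gene, on its own strand. Of the 75 described members, 19 matched a window. Capitals mark an E-box (CAGGTG or its reverse complement) or an ETS-type motif (AGGAAG or its reverse complement), which 20.2% and 35.4% of all 32851 windows held. Among the members' 20 windows, 2 held the E-box and 8 the ETS-type motif.
Pcdh17, chr14:84443313-84443612, plus strand: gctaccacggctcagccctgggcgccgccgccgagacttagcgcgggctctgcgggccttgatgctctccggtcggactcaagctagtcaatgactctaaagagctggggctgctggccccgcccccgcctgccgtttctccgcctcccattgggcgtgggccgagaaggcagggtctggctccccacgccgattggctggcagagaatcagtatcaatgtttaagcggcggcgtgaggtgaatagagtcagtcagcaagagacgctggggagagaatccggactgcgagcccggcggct
Pcdh7, chr5:57717831-57718130, plus strand: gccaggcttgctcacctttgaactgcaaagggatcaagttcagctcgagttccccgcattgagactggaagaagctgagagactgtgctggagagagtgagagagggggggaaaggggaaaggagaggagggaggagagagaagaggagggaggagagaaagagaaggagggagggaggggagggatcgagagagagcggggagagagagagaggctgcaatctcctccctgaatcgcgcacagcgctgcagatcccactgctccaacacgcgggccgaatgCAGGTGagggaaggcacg
Cdh23, chr10:60696441-60696740, minus strand: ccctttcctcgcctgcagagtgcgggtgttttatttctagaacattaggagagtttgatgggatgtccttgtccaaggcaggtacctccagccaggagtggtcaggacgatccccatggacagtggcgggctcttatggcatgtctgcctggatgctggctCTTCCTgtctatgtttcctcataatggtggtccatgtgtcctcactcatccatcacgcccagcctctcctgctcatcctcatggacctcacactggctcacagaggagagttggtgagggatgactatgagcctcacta
The Pcdh7 window held 1 E-box and the Cdh23 window 1 ETS-type motif. The Pcdh17 window held neither run of letters.

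Members separated the lung's tissues. Over the 4 libraries together, Cdh5 was highest in aerocytes at 1562 CPM (1526 to 1599), followed by general capillary cells at 1264 CPM (1246 to 1281), venous cells at 816 CPM (778 to 856), arterial cells at 617 CPM (558 to 680.2) and lymphatic cells at 541 CPM (495 to 591). Of neighbors in this order, only arterial and lymphatic cells had overlapping intervals. Alveolar macrophages, which should lack VE-cadherin, had 2.48 CPM, or 0, 1.84, 5.91 and 1.43 by library. Pcdh17, a delta protocadherin, was also endothelial, with 419 CPM (392 to 447) in venous and 401 CPM (391 to 411) in general capillary cells, whose intervals overlapped, and 299.6 CPM (284 to 316) in aerocytes. Pcdh1, a delta protocadherin of epithelia and endothelium, reached 417 CPM (399 to 437) in aerocytes against 162 CPM (156 to 168) in general capillary cells and 115 CPM (100.5 to 131) in pericytes. With the libraries summed, Pcdh12, also called VE-cadherin-2, was highest in lymphatic cells at 50.6 CPM (37.2 to 67.3). Aerocytes had 26.6 CPM (22.1 to 31.8) and general capillary cells 20.2 CPM (18.1 to 22.5). This order did not hold in every library. In the young nonventilated library, aerocytes and general capillary cells were above lymphatic cells, and in the aged nonventilated library lymphatic cells were above both. The single described alpha gene, Pcdhac2, was counted mainly in aerocytes, with 65 UMIs in 60 of 675 aerocytes (14.4 CPM) and 7 UMIs in 1929 general capillary cells (0.431 CPM).

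Arterial and mural cells had other members. Cdh13, a cadherin anchored by a lipid instead of a membrane-spanning tail, was highest in arterial cells at 1133 CPM (1053 to 1217), then in smooth muscle at 416 CPM (391 to 442) and alveolar type I cells at 345 CPM (316 to 376), and stood at 3.51 CPM in general capillary cells. Pcdh18 and Pcdh19 were highest in pericytes, at 459 CPM (429.8 to 489.8) and 255 CPM (234 to 279). N-cadherin (Cdh2) was highest there as well, at 198 CPM (179 to 219), and Cdh6 in smooth muscle at 92.5 CPM (80.8 to 105) and pericytes at 68.2 CPM (57.2 to 80.7). Pcdh7 was highest in smooth muscle at 1573 CPM (1524 to 1624), with 651 CPM (603 to 702) in myofibroblasts. R-cadherin (Cdh4) was highest in myofibroblasts at 763 CPM (710.5 to 818), where Pcdh9 reached 325 CPM (291 to 362). Cdh11, the mesenchymal cadherin of fibroblasts, stood at 444 CPM (432 to 455) in alveolar and 315 CPM (298 to 332) in adventitial fibroblasts.

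Epithelial and immune cells shared Cdh1. It was higher in basophils or mast cells, at 849 CPM (733 to 979) from 44 of 65 cells, than in alveolar type I cells at 519 CPM (483 to 557) and type II cells at 269 CPM (234 to 309). Alveolar macrophages carried 60.9 CPM (53.9 to 68.6) from 130 of 270 cells, against 2.81 CPM in nonclassical monocytes. In basophils or mast cells the 4 libraries gave 716, 909, 1045 and 519.6 CPM from 41, 52, 80 and 17 UMIs, so the level was high in every library, although only 17, 20, 22 and 6 cells were present. Of the 13999 Cdh1 UMIs over all barcodes, 2317 were in retained cells, and 697 of these lay in unnamed clusters. The cluster scoring highest for ciliated markers, with 312 cells, stayed unnamed. The order of classes for Cdh1 therefore covers retained cells of named classes only, without airway epithelium. Cdh10 was highest in T, NK or innate lymphoid cells at 95.4 CPM (82.1 to 110.4), where the libraries gave 122, 63, 93 and 102 CPM and 31 of 223 cells carried a UMI. Cdh16 was highest in alveolar type II cells, at 33.7 CPM (22 to 49.3) from 13, 8, 5 and 0 UMIs. Cdh23 is known as the tip link protein of inner ear hair cells. With the libraries summed, it was highest in neutrophils at 42.3 CPM (35.5 to 50.1) and classical monocytes at 32.5 CPM (28 to 37.5), whose intervals overlapped. This order varied by library. Interstitial macrophages were above neutrophils in both nonventilated libraries, and venous cells and classical monocytes were above them in the young ventilated library.

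The gamma protocadherins leaned toward endothelium. The 21 gamma members had a median of 68.6% of their UMIs in the 5 endothelial classes, against 29.1% of the UMIs of all genes and a median of 41.9% for the 21 beta members. Of the 47 members with at least 100 UMIs in retained cells, 26 were highest in an endothelial class, and 17 of those were gamma genes. Of the 9 beta genes among them, 5 were highest in a class of fibroblasts, at 17.3 CPM for Pcdhb9 and 13.9 CPM for Pcdhb17 in adventitial fibroblasts. With the libraries summed, only Cdh5, Pcdh1, Cdh13 and Pcdh12 of the 26 endothelial members had an interval above that of the next class. For Pcdh12 the order of classes was reversed in the young nonventilated library. The intervals of the 17 gamma genes and the 5 beta genes overlapped that of the next class. That class was pericytes for Pcdhga1, Pcdhgb6 and Pcdhgc3 and another endothelial class for the rest of these gamma genes. For the 5 beta genes it was the other class of fibroblasts. The share of all genes highest in an endothelial class was not counted.

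**Figure D1:**
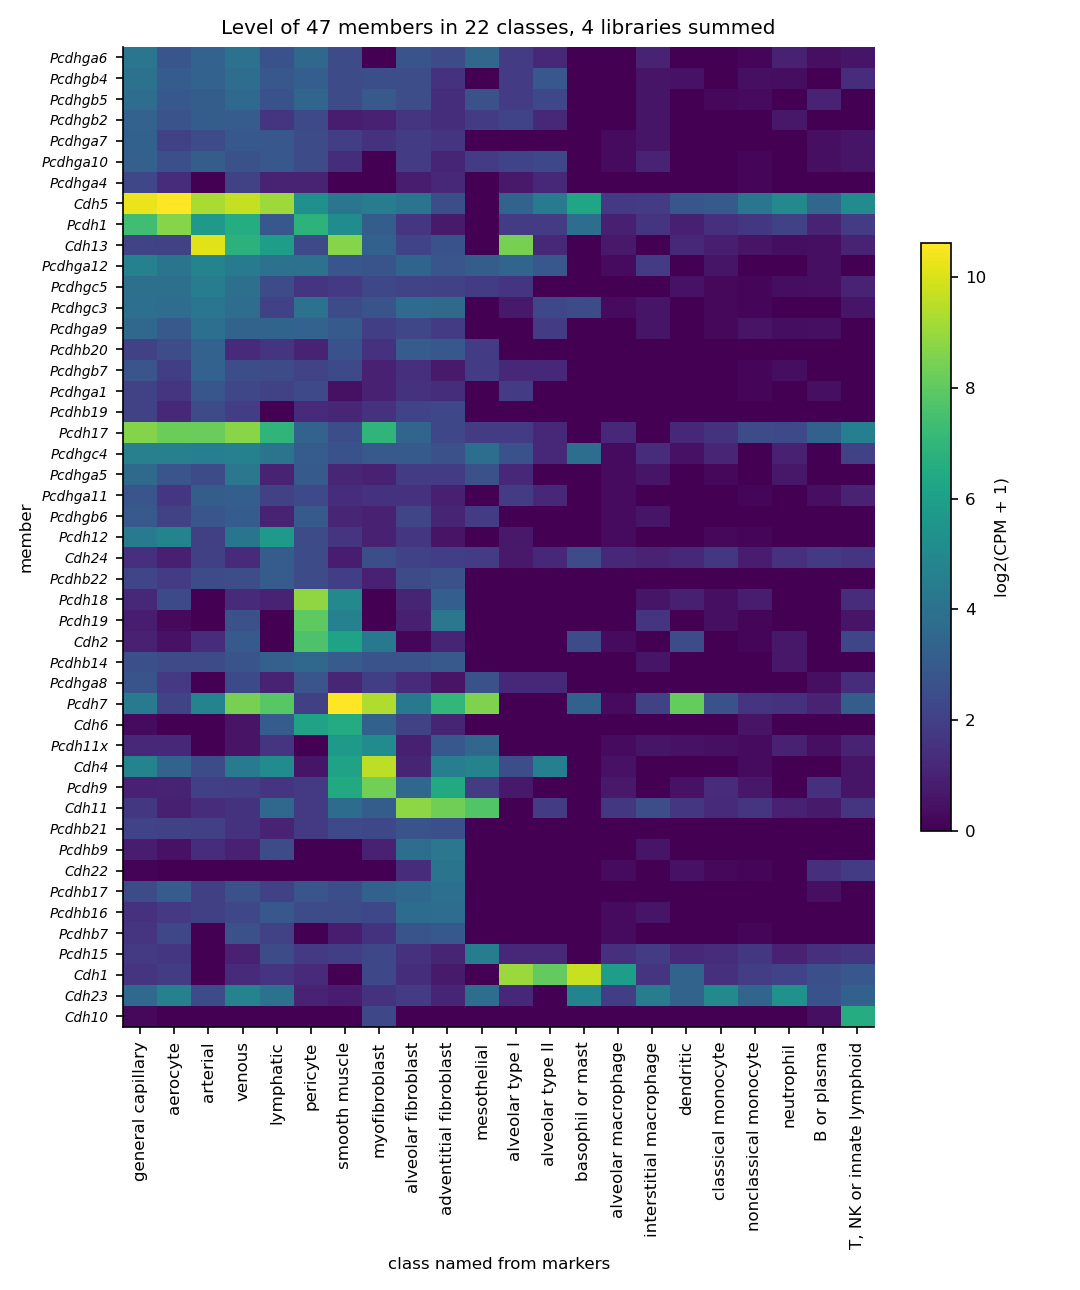
Level of the 47 members with at least 100 UMIs in retained cells (rows) in the 22 classes (columns), as log2 of CPM plus 1 with the 4 libraries summed. Rows are ordered by the class in which the member was highest; Cdh5 and Pcdh17 fill the endothelial columns, Cdh11 the fibroblast columns, and Cdh1 the alveolar, basophil or mast and alveolar macrophage columns.

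With ventilation, the members of the capillary endothelium moved in opposite directions while Cdh5 itself stayed near its level. A member was called when its CPM differed at least 2-fold, with 1 UMI added to each sum, among members with at least 50 UMIs over the 2 libraries compared. In general capillary cells of young mice, 7 of 20 members were called higher in the ventilated library and 3 lower, where 6.53% and 17.9% of all 9285 genes were called higher and lower. In aged mice, 4 of 22 were called higher and 1 lower, against 4.19% and 10.8% of 9036 genes. All genes together had a median log2 ratio of -0.25 in young and -0.13 in aged mice, so that the members' ratios lay higher by those amounts relative to the typical gene. The members' own medians were 0.78 and 0.42.

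Pcdh12 had the largest ratio of the called members in both capillary classes. In general capillary cells its UMIs were 170, 17, 120 and 21, or 39.1, 3.83, 27.5 and 6.77 CPM, and both ventilated libraries lay below both nonventilated libraries. It was 10.2-fold lower (6.19 to 17.9) after ventilation in young mice and 4.06-fold lower (2.54 to 6.79) in aged mice. Cells with a Pcdh12 UMI numbered 127, 16, 91 and 17, so the difference was spread over many cells. These were 22.7%, 2.93%, 18.2% and 5.26% of the cells, at medians of 7160.5 to 8656 UMIs per cell. B or plasma cells, at medians of 7372.5 to 10059 UMIs, gave 0 in every library, with upper bounds of 3.73% to 9.74%. With each general capillary cell thinned to 1000 UMIs, which left out 5 shallower cells, the shares were 3.24%, 0.549%, 2.81% and 0.929%. In aerocytes Pcdh12 had 76, 6, 33 and 5 UMIs, or 50.9, 4.9, 37.7 and 5.45 CPM, and the ventilated libraries were again the low ones. It was 10.4-fold lower (4.56 to 29.2) in young ventilated aerocytes, and 6.91-fold lower (2.68 to 22.7) in aged ventilated aerocytes, where 38 UMIs in all left it below the minimum for a call. In lymphatic cells, with 8, 18, 14 and 7 UMIs (30.6, 67.8, 64.1 and 38.2 CPM), the libraries did not separate by ventilation.

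Cdh5 differed little. Its level in general capillary cells was 1249.7, 1238, 1219.7 and 1381 CPM, from 5428, 5489, 5327 and 4283 UMIs. The ventilated library was 1.01-fold lower (0.972 to 1.05) in young and 1.13-fold higher (1.09 to 1.18) in aged mice. Scaling by median ratios instead of class totals turned the young log2 ratio from -0.014 to 0.14. In aerocytes it was 1539.5, 1655, 1356 and 1674 CPM, 1.07-fold higher (1.01 to 1.14) with ventilation in young and 1.24-fold higher (1.14 to 1.33) in aged mice. The aged ventilated library was the highest in both classes. Pcdh1 had 184, 113, 194 and 154 CPM in general capillary cells and 529, 264, 537 and 325 CPM in aerocytes, with both ventilated libraries below both nonventilated ones in each class. In aerocytes it was 2.01-fold lower (1.76 to 2.29) in young and 1.65-fold lower (1.43 to 1.92) in aged mice. In general capillary cells it was 1.62-fold lower (1.45 to 1.82) and 1.26-fold lower (1.12 to 1.41). In aerocytes the class's own markers moved with it: the 8 aerocyte markers summed to 9752, 5488, 8686 and 6474 CPM and the 8 pan-endothelial markers to 11529.8, 6395, 10188 and 8345 CPM, both lower in the ventilated libraries. Their part in the Pcdh1 levels was not tested.

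Pcdh17 had 502, 373, 449.7 and 231 CPM in general capillary cells, where the aged ventilated library stood lowest. It was 1.34-fold lower (1.26 to 1.43) with ventilation in young and 1.95-fold lower (1.79 to 2.12) in aged mice, and the difference between these log2 ratios, aged minus young, was -0.53 (-0.69 to -0.38). In aerocytes Pcdh17 had 273, 397, 281 and 231 CPM, with the young ventilated library highest. It was 1.46-fold higher (1.27 to 1.67) in young ventilated and 1.21-fold lower (1.01 to 1.47) in aged ventilated aerocytes, and the difference was -0.82 (-1.15 to -0.50). The aged ventilated library was below the young ventilated library in both classes, 1.62-fold lower (1.48 to 1.77) in general capillary cells and 1.72-fold lower (1.46 to 2.03) in aerocytes. In general capillary cells this age comparison sets mostly cluster e2 against mostly e1.

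Other members of general capillary cells were lower or higher at lower levels. Cdh4 had 33.2, 13.3, 36.6 and 19.4 CPM and was 2.49-fold lower (1.83 to 3.43) in young and 1.89-fold lower (1.4 to 2.59) in aged ventilated cells. Pcdh7 had 43.7, 8.8, 10.1 and 11.9 CPM, which set the young nonventilated library apart from the other three. Its UMIs came from 56, 13, 20 and 10 cells, and the 3 highest cells of each library held 51, 28, 24 and 30 of its 190, 39, 44 and 37 UMIs. It was 4.97-fold lower (3.51 to 7.21) with ventilation in young mice and 1.18-fold higher (0.744 to 1.88) in aged mice. Cdh23 had 6.45, 22.1, 5.04 and 12.3 CPM and was 3.43-fold higher (2.23 to 5.42) and 2.43-fold higher (1.4 to 4.32) with ventilation in young and aged mice. In aerocytes Cdh23 had 14.1, 29.4, 20.5 and 34.9 CPM and 21, 36, 18 and 32 UMIs, 2.09-fold higher (1.19 to 3.77) in young ventilated cells and 1.7-fold higher (0.925 to 3.21) in aged ventilated cells. Markers of other cell types moved with ventilation in these classes: the 8 neutrophil markers summed to 30.6, 48.3, 19.9 and 75.8 CPM in general capillary cells and 24.1, 115, 27.4 and 144 CPM in aerocytes, and the haemoglobin genes to 1.84, 7.89, 4.12 and 402 CPM in general capillary cells. The 8 general capillary markers themselves summed to 8071, 3805, 7842 and 5219 CPM in general capillary cells. Neutrophils carried Cdh23 at 25.4, 36, 16.4 and 59.5 CPM. The part of these cells in the Cdh23 levels was not tested.

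In aerocytes of young mice, 1 of 6 members was called higher and 2 lower, against 8.52% and 17.8% of all 6431 genes. These were Cdh23, Pcdh1 and Pcdh12. In aged aerocytes, 0 of 4 members were called, where 5.72% and 9.23% of 5300 genes were called higher and lower. The Pcdh1 call in young aerocytes lay at the limit.

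**Figure D2:**
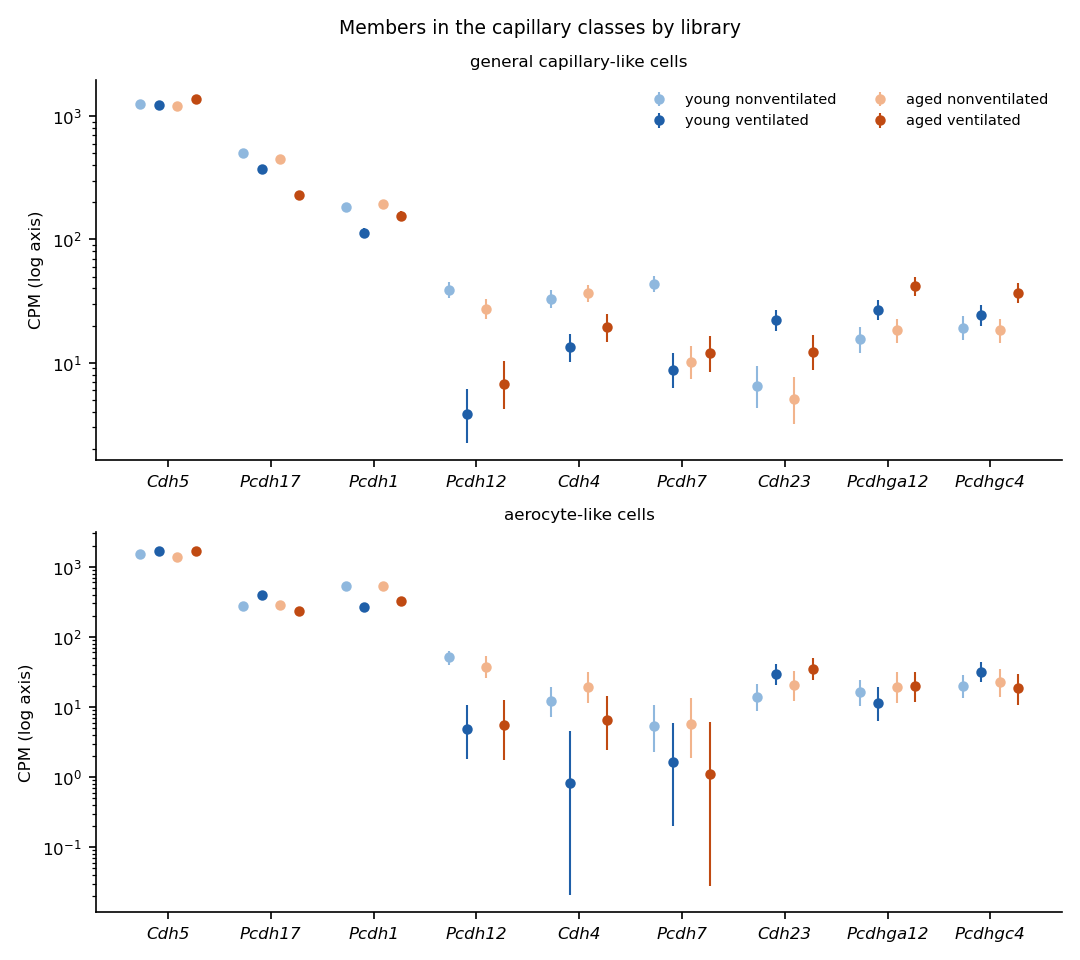
Level of 9 members in general capillary-like cells (top) and aerocyte-like cells (bottom) in each of the 4 libraries, in CPM on a log axis. Points are summed CPM and bars are 95% exact Poisson intervals for counting error; Pcdh12 lies near 4 to 7 CPM in the ventilated libraries and at 27 to 51 CPM in the nonventilated ones, while Cdh5 lies between 1219.7 and 1674 CPM.

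The gamma protocadherins were higher with ventilation as a group in general capillary cells. Summed over the 21 genes, their UMIs were 562, 1103, 806 and 902, or 129, 249, 185 and 291 CPM, and both ventilated libraries exceeded both nonventilated ones. The sum was 1.92-fold higher (1.74 to 2.13) in young and 1.58-fold higher (1.43 to 1.74) in aged ventilated cells. Among the 18 gamma genes with at least 20 UMIs over the 2 libraries, 18 were higher in young ventilated cells, with a median log2 ratio of 1.00, and the interval of 14 lay above equality. Of all 11060 genes with that minimum, 32.4% were higher and the interval of 17.9% lay above equality. In aged mice 17 of 18 were higher, with a median of 0.51, and the interval of 7 lay above equality, against 39.0% of 10868 genes higher and 17.1% with the interval above equality. The genes share exons, so they are not independent measurements. Among single genes, the difference in log2 ratio between ages, aged minus young, had an interval that left out 0 for 9 of 27 members of general capillary cells and for 32.4% of 9636 genes, so the members' share lay near that of all genes. These included Pcdh12 at 1.31 (0.35 to 2.27), Pcdh7 at 2.54 (1.74 to 3.33), Pcdh1 at 0.37 (0.14 to 0.59) and Pcdhgb5 at -1.36 (-2.20 to -0.52). The summed beta protocadherins, from the neighboring cluster, had 37.5, 35.9, 38 and 44.8 CPM, 1.05-fold lower (0.836 to 1.31) in young and 1.18-fold higher (0.935 to 1.49) in aged ventilated cells.

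In young general capillary cells, 6 of the called members were gamma genes. Pcdhga5 had 6.22, 18.5, 8.93 and 13.2 CPM and was 2.98-fold higher (1.91 to 4.78) with ventilation. Pcdhgb5 had 5.76, 16.9, 14 and 15.5 CPM, 2.94-fold higher (1.85 to 4.82). Pcdhga10 had 4.14, 10.6, 6.64 and 14.2 CPM, and it was 2.56-fold higher (1.46 to 4.68) in young and 2.14-fold higher (1.31 to 3.54) in aged mice, the 1 gamma gene called at both ages. Pcdhgb4, Pcdhgb2 and Pcdhgb6 were called in young mice as well. Pcdhgb4 had 9.21, 20.1, 13.3 and 19 CPM, Pcdhgb2 had 4.83, 10.4, 9.62 and 12.6 CPM and Pcdhgb6 had 3.91, 9.92, 6.64 and 7.1 CPM, and in each the young nonventilated library was the lowest. All of these rest on 17 to 89 UMIs per library.

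Pcdhga12 and Pcdhgc4 had the most UMIs of the gamma genes. Pcdhga12 had 67, 119, 80 and 129 UMIs in general capillary cells, or 15.4, 26.8, 18.3 and 41.6 CPM, with the aged ventilated library highest. It was 1.74-fold higher (1.28 to 2.38) in young and 2.27-fold higher (1.71 to 3.04) in aged ventilated cells. Pcdhgc4 had 83, 108, 80 and 115 UMIs, or 19.1, 24.4, 18.3 and 37.1 CPM, again highest in the aged ventilated library. It was 1.27-fold higher (0.949 to 1.72) in young and 2.02-fold higher (1.51 to 2.73) in aged ventilated cells, with a difference in log2 ratio of 0.67 (0.09 to 1.25). The aged ventilated library was above the young ventilated library for both, 1.55-fold higher (1.2 to 2.01) for Pcdhga12 and 1.52-fold higher (1.16 to 2) for Pcdhgc4, which is under 2-fold. In aerocytes the counts were lower and the ventilated libraries were not both the higher ones. There Pcdhga12 had 16.1, 11.4, 19.4 and 19.6 CPM from 24, 14, 17 and 18 UMIs. Pcdhgc4 had 20.1, 31.9, 22.8 and 18.5 CPM from 30, 39, 20 and 17 UMIs, 1.72-fold lower (0.95 to 3.24) in aged than in young ventilated aerocytes. The summed gamma genes of aerocytes had 111, 145, 134 and 160.2 CPM, 1.3-fold higher (1.05 to 1.62) in young and 1.2-fold higher (0.935 to 1.54) in aged ventilated cells. The summed beta genes of aerocytes had 40.9, 52.3, 65 and 31.6 CPM from 61, 64, 57 and 29 UMIs. They were 1.28-fold higher (0.887 to 1.85) in young and 2.06-fold lower (1.29 to 3.34) in aged ventilated cells.

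**Figure D3:**
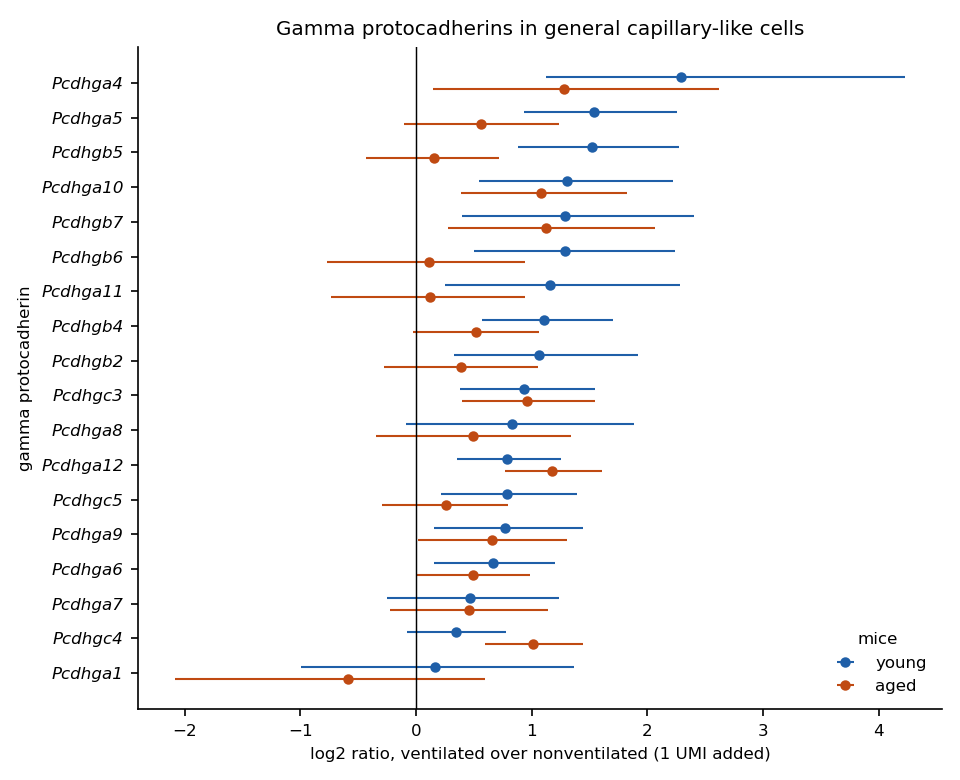
Log2 ratio of ventilated over nonventilated for the 18 gamma protocadherins with at least 20 UMIs in both comparisons, in general capillary-like cells of young (blue) and aged (orange) mice. Points have 1 UMI added to each sum and bars are 95% exact intervals of the ratio for counting error; all 18 points lie above 0 in young and 17 of 18 in aged mice.

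With age, few members were called. In nonventilated general capillary cells, 1 of 18 members was called higher in aged mice and 1 lower, against 0.961% and 0.648% of all 9574 genes. These were Pcdhgb5, 2.43-fold higher (1.5 to 4.03), and Pcdh7, 4.34-fold lower (3.11 to 6.17). In ventilated general capillary cells, 0 of 22 were called, against 1.98% and 2.13% of 8468 genes. In aerocytes, 0 of 5 were called in either age comparison, against 0.911% and 0.55% of 6369 genes in nonventilated and 2.2% and 3.76% of 5323 genes in ventilated cells. The summed gamma genes were 1.43-fold higher (1.28 to 1.59) in aged than in young nonventilated general capillary cells, and 1.17-fold higher (1.07 to 1.28) in ventilated ones. The ventilation and age comparisons share libraries, so their values are not independent of each other.

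Larger vessels held fewer cells, and single cells weighed more. Venous cells numbered 55, 41, 59 and 56. Their Cdh5 was 788, 804, 793 and 872 CPM and their Pcdh17 402, 384, 468 and 416 CPM, neither of which separated ventilated from nonventilated libraries. Their Pcdh7 was 218, 579, 362 and 281 CPM, 2.66-fold higher (2.13 to 3.32) in young ventilated and 1.29-fold lower (1.04 to 1.6) in aged ventilated cells. Of its 122, 252, 191 and 164 UMIs, 3 cells per library held 57, 111, 102 and 91. Their Cdh13 was 143, 75.8, 108 and 109 CPM and their Pcdh1 116, 73.5, 102 and 83.8 CPM. Venous Cdh23 was 14.3, 62, 13.3 and 22.2 CPM from 8, 27, 7 and 13 UMIs. The summed gamma genes of venous cells were 123, 202, 152 and 298 CPM, 1.64-fold higher (1.18 to 2.28) in young and 1.96-fold higher (1.5 to 2.59) in aged ventilated cells. Their summed beta genes were 51.8, 34.5, 28.4 and 75.3 CPM from 29, 15, 15 and 44 UMIs. The beta sum was 1.5-fold lower (0.78 to 3.02) in young and 2.65-fold higher (1.44 to 5.12) in aged ventilated cells.

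Arterial cells numbered 21, 28, 15 and 15. Their Cdh13 was 1541, 1644, 949 and 132 CPM, 1.07-fold higher (0.902 to 1.26) in young ventilated and 7.17-fold lower (4.45 to 12.2) in aged ventilated cells. The aged ventilated library stood alone below the other three, and its 20 UMIs came from 2 cells. Cdh13 UMIs were found in 13, 21, 12 and 2 cells. Arterial Pcdh17 was 147, 314, 178 and 496 CPM, 2.14-fold higher (1.31 to 3.63) in young and 2.8-fold higher (1.73 to 4.67) in aged ventilated cells, from 22, 70, 23 and 75 UMIs. Arterial Cdh5 was 507, 588, 609.8 and 774 CPM. Arterial Pcdh1, Pcdh7 and Pcdhga12 had at most 17 UMIs per library: Pcdh1 was 20, 76.4, 54 and 46.3 CPM, Pcdh7 40, 18, 46.3 and 6.62 CPM and Pcdhga12 26.7, 31.4, 15.4 and 26.5 CPM.

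Lymphatic cells numbered 30, 31, 29 and 20. Their Cdh5 was 459, 723, 526 and 414 CPM. Their Pcdh17 was 30.6, 185, 215 and 49.1 CPM, 6.03-fold higher (2.83 to 14.7) in young ventilated cells and 4.38-fold lower (2.12 to 10.2) in aged ventilated cells. Of its 8, 49, 47 and 9 UMIs, 3 cells per library held 7, 46, 26 and 8. Their Pcdh7 was 191, 105, 348 and 322 CPM, 3.05-fold higher (1.91 to 4.97) in aged than in young ventilated cells. Their Cdh13 was 161, 22.6, 36.6 and 5.45 CPM, and 37 of the 42 UMIs of the young nonventilated library came from 3 cells. Their Cdh4 was 49.7, 37.7, 32 and 5.45 CPM from 13, 10, 7 and 1 UMIs.

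Among mural cells, Pcdh7 of smooth muscle differed most clearly. It had 1833, 279, 1511 and 222 UMIs, or 2015, 589, 2234 and 578 CPM, and the ventilated libraries lay below the nonventilated ones at both ages. It was 3.42-fold lower (3.02 to 3.9) in young and 3.86-fold lower (3.35 to 4.47) in aged ventilated cells. Scaling by median ratios moved all log2 ratios of smooth muscle by -0.16 in young and -0.11 in aged mice and those of young general capillary cells by 0.16, and turned no direction of a called member. In smooth muscle of young mice 0 of 6 members were called higher with ventilation and 3 lower, against 6.6% and 6.93% of all 4545 genes. In aged mice 0 of 6 were called higher and 1, Pcdh7, lower, against 3.78% and 7.77% of 3757 genes. The others in young mice were Cdh4, at 109, 38, 57.7 and 28.7 CPM, and Pcdh9, at 122, 44.3, 71 and 75.5 CPM. Cdh4 was 2.86-fold lower (1.72 to 5.03) and Pcdh9 2.75-fold lower (1.72 to 4.62) in young ventilated smooth muscle. Cdh13 was 572, 355, 365 and 214 CPM, under 2-fold lower with ventilation at both ages. Cdh2 was 93.4, 84.4, 51.7 and 36.5 CPM, 2.31-fold lower (1.23 to 4.61) in aged than in young ventilated cells. Cdh6 was 115, 90.7, 75.4 and 70.3 CPM. Pcdh11x was 29.7, 14.8, 81.3 and 99 CPM, 2.74-fold higher (1.7 to 4.52) in aged than in young nonventilated cells, but its UMIs came from 4, 3, 5 and 4 cells.

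In myofibroblasts, which numbered 36, 37, 23 and 16, Cdh4 had 517, 39, 194 and 36 UMIs, or 1449, 117, 937 and 269 CPM. It was 12.4-fold lower (8.92 to 17.6) in young and 3.48-fold lower (2.43 to 5.11) in aged ventilated cells, the same direction as in smooth muscle and general capillary cells. Pcdh7 was 706, 568, 690.3 and 651 CPM in myofibroblasts, without the difference seen in smooth muscle. Pcdh9 was 505, 292, 159 and 187 CPM, 3.17-fold lower (2.18 to 4.74) in aged than in young nonventilated cells. Pcdh17 was 72.9, 84.2, 348 and 0 CPM, with 0 UMIs in the aged ventilated library. Against a floor of 3 UMIs it was at least 15.5-fold lower there than in the aged nonventilated library. Cdh19 was 5.61, 6.01, 299 and 29.9 CPM, and its 62 UMIs in the aged nonventilated library came from 2 cells.

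In pericytes the leading members differed less than 2-fold. Their Pcdh18 was 601, 348, 558 and 315 CPM, 1.73-fold lower (1.44 to 2.07) in young and 1.77-fold lower (1.43 to 2.21) in aged ventilated cells. Their Cdh2 was 279, 155, 227 and 121 CPM, 1.8-fold lower (1.38 to 2.37) and 1.88-fold lower (1.33 to 2.71). Both were lower in both ventilated libraries than in both nonventilated ones. Their Pcdh19 was 229, 248, 336 and 194 CPM, 1.08-fold higher (0.842 to 1.39) in young and 1.73-fold lower (1.31 to 2.31) in aged ventilated cells.

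In fibroblasts Cdh11 gave the most UMIs of the members. In alveolar fibroblasts it had 671, 267, 637 and 343 CPM, 2.51-fold lower (2.35 to 2.69) in young and 1.86-fold lower (1.71 to 2.02) in aged ventilated cells. In adventitial fibroblasts it had 362, 174, 341 and 208 CPM, 2.08-fold lower (1.69 to 2.58) and 1.64-fold lower (1.3 to 2.08). The ventilated libraries lay below the nonventilated ones in both kinds of fibroblast. The calls in young mice depended on the processing: with 20 principal components the log2 ratios were -0.75 in alveolar and -0.45 in adventitial fibroblasts, with a mitochondrial limit of 5% the alveolar one was -0.14, and in thinned cells the adventitial one was -0.29. The 8 alveolar fibroblast markers themselves summed to 8222, 3344, 7667 and 4129.7 CPM in alveolar fibroblasts, lower in the ventilated libraries as Cdh11 was, and their part in its level was not tested. The alveolar fibroblasts of nonventilated and ventilated mice lay in different clusters, c6 and c4. In alveolar fibroblasts the young ventilated library stood alone for Pcdh7, at 10.4, 34.6, 7.22 and 7.51 CPM, and for Pcdh9, at 2.61, 21, 2.81 and 8.7 CPM. Pcdh7 was 3.31-fold higher (2.26 to 4.98) and Pcdh9 8.04-fold higher (3.94 to 19.1) with ventilation in young mice, and both reversed when the clusters were made at a lower resolution, with log2 ratios of -0.55 for Pcdh7 and -0.48 for Pcdh9. Pcdhb9 was 8.49, 14.1, 18.1 and 12.7 CPM in alveolar and 12.6, 3.39, 30.9 and 7.18 CPM in adventitial fibroblasts. It was 2.13-fold higher (1.28 to 3.59) and 2.46-fold higher (1.47 to 4.24) in aged than in young nonventilated cells. The endothelial members Cdh5, at 18.6, 21.6, 9.63 and 8.7 CPM, and Pcdh17, at 10.8, 15.7, 6.42 and 1.19 CPM, were low in alveolar fibroblasts, and 3 cells per library held 30, 50, 13 and 21 of the 57, 113, 24 and 22 Cdh5 UMIs. In adventitial fibroblasts Pcdh7 was 149, 112, 117 and 108 CPM, Pcdh9 91.8, 67.7, 79.9 and 115 CPM and Pcdh19 9.29, 10.2, 32.9 and 4.79 CPM, the last from 17, 6, 51 and 2 UMIs and 3.54-fold higher (2.01 to 6.53) in aged than in young nonventilated cells.

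In alveolar type I cells, which numbered 26, 36, 33 and 14, Cdh1 had 355, 702, 349 and 769 CPM. It was 1.98-fold higher (1.61 to 2.44) in young and 2.2-fold higher (1.75 to 2.78) in aged ventilated cells, and both ventilated libraries were above both nonventilated ones. Cdh13 had 457, 284, 409.6 and 134 CPM in the same cells and moved the other way, 1.61-fold lower (1.27 to 2.03) in young and 3.05-fold lower (2 to 4.83) in aged ventilated cells. Pcdhga12 was 16.9, 6.12, 10.8 and 5.38 CPM there. In alveolar type II cells, which numbered only 14, 17, 18 and 4, Cdh1 was 262, 388, 192 and 153 CPM, Cdh16 65.6, 32.4, 19.6 and 0 CPM and Cdh4 70.7, 8.09, 7.84 and 0 CPM. In alveolar macrophages Cdh1 was 40.9, 52.6, 96.8 and 41.5 CPM, 2.36-fold higher (1.71 to 3.32) in aged than in young nonventilated cells and 2.33-fold lower (1.55 to 3.62) with ventilation in aged mice, so that the aged nonventilated library stood alone. Its 131 UMIs came from 48 of 85 cells. In mesothelial cells, at most 12 per library, Cdh11 was 401, 75.8, 346 and 166 CPM, Pcdh7 367, 157, 1557 and 193 CPM and Cdh3 16.7, 37.9, 98.9 and 27.6 CPM.

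**Figure D4:**
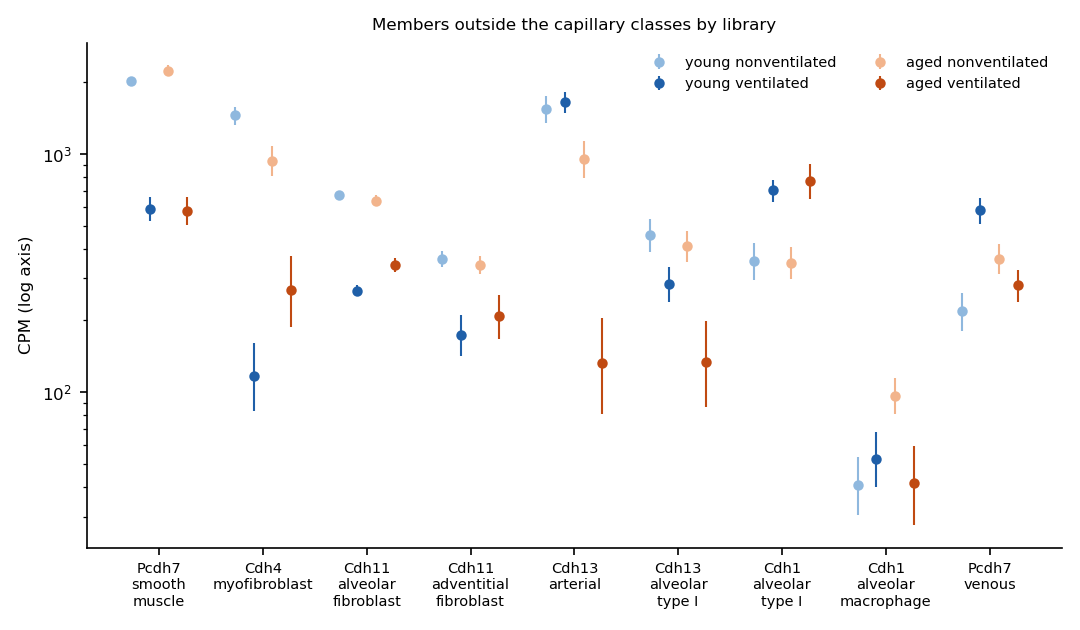
Level of 5 members in classes outside the capillary endothelium, in each of the 4 libraries, in CPM on a log axis. Points are summed CPM and bars are 95% exact Poisson intervals for counting error; Pcdh7 of smooth muscle, Cdh4 of myofibroblasts and Cdh11 of fibroblasts are lower in both ventilated libraries, Cdh1 of alveolar type I cells is higher in both, and arterial Cdh13 is low in the aged ventilated library alone.

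Immune cells carried few members. In dendritic cells Pcdh7 was 329.8, 165, 300.2 and 352 CPM, with UMIs in 17, 18, 24 and 6 cells, and in the aged ventilated library 3 cells held 107 of its 111 UMIs. Cdh23 was 25.4, 36, 16.4 and 59.5 CPM in neutrophils, 3.62-fold higher (1.36 to 13.6) with ventilation in aged mice. In classical monocytes it was 27.7, 50.3, 18.4 and 30.9 CPM, in nonclassical monocytes 8.15, 13.8, 8.77 and 10.5 CPM, in interstitial macrophages 38, 5.18, 30.1 and 6.09 CPM and in dendritic cells 1.95, 7.91, 13.9 and 12.7 CPM. Basophils or mast cells had 17.5, 35, 26.1 and 30.6 CPM of Cdh23 and alveolar macrophages 0.772, 4.61, 2.95 and 4.29 CPM. In monocytes of both kinds the 2 ventilated libraries were above the nonventilated ones, and classical monocytes lay mostly in cluster c19 without ventilation and in c18 with it, with c22 in all libraries. Pcdh7 in classical monocytes was 4.15, 11.5, 1.68 and 3.03 CPM from 6, 17, 2 and 5 UMIs, and in interstitial macrophages 0, 2.59, 12.6 and 0 CPM, where Cdh11 was 6.07, 5.18, 2.51 and 4.06 CPM. Cdh1 in dendritic cells was 7.81, 12.7, 10.1 and 3.17 CPM. Cdh17 in B or plasma cells had 8, 3, 5 and 7 UMIs, or 10.1, 10.4, 5.57 and 8.43 CPM.

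Cdh5 was also counted at low levels in leukocytes, in few cells. In nonclassical monocytes it had 8, 63, 61 and 8 UMIs, or 5.93, 37.7, 19.8 and 3.83 CPM, and 3 cells per library held 5, 48, 34 and 5 of them. In neutrophils it had 7, 56, 7 and 30 UMIs, or 12.7, 51.7, 28.7 and 22.9 CPM, with 6, 48, 7 and 24 in 3 cells. In T, NK or innate lymphoid cells it had 4, 33, 7 and 20 UMIs, or 12.5, 109, 9.04 and 39.2 CPM, with 4, 32, 3 and 20 in 3 cells. Classical monocytes gave 8.99, 8.83, 6.71 and 3.64 CPM and B or plasma cells 20.2, 10.4, 7.8 and 3.61 CPM. Pcdh17 was low in the same classes, at 1.48, 7.19, 6.5 and 1.43 CPM in nonclassical monocytes, 3.63, 6.46, 12.3 and 0.762 CPM in neutrophils and 27.7, 3.48, 2.23 and 0 CPM in B or plasma cells. In T, NK or innate lymphoid cells it was 28.1, 63, 16.8 and 5.87 CPM from 9, 19, 13 and 3 UMIs, with 9, 19, 13 and 3 in 3 cells. Basophils or mast cells had 1, 0, 1 and 15 Cdh5 UMIs, or 17.5, 0, 13.1 and 458 CPM, so the aged ventilated library, with 6 cells, stood alone there. Endothelial markers moved with it: the 8 pan-endothelial markers summed to 209.5, 139.8, 144 and 3637 CPM and the 8 general capillary markers to 34.9, 52.4, 169.8 and 1314 CPM in these cells. Their part in the Cdh5 level was not tested. Leaving out the 5% of cells with the highest doublet scores turned the neutrophil ratio in young mice from a log2 of 1.86 to -1.37.

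The partners of the cadherins were compared in the same capillary classes. Of 18 catenins and binding partners, 12 had enough UMIs. In general capillary cells 1 was called higher and 3 lower with ventilation in young mice, and 0 higher and 2 lower in aged mice. These counts lay near the shares of all genes, of which 6.53% were called higher and 17.9% lower in young and 4.19% and 10.8% in aged mice. The 2 called lower at both ages were receptor phosphatases. Ptprb, which acts on VE-cadherin, was 2981, 779, 2509 and 1069 CPM in general capillary cells. It is also a fixed marker of that class, so its level there is not independent of the naming. Ptprm was 2215, 833, 2393 and 1087 CPM there. Cdh5 itself was not called at either age. Jup, the gene of plakoglobin, was 343, 89.8, 324 and 181 CPM and was called lower in young mice. Vcl, the gene of vinculin, was 612, 1711, 1204 and 1431 CPM and was called higher in young mice. In aerocytes 0 partners were called higher and 2, Jup and Ptprb, lower at each age, where 17.8% of all genes were called lower in young and 9.23% in aged aerocytes. Ptprm there had log2 ratios of -0.17 and -0.05. Of the 5 desmosomal cadherins, 0 reached the minimum in either class. Of 18 other cadherin-repeat genes, 4 reached it in general capillary cells, and 2 were called lower and 0 higher with ventilation at each age. These were Clstn1, a calsyntenin, at 177, 69.9, 178 and 88 CPM, and Fat4, a giant cadherin, at 63.5, 19.2, 55.9 and 20.3 CPM. With age, 0 of the 12 partners were called in nonventilated general capillary cells, and 1, Jup, was called higher in ventilated ones.

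The rest of the family was counted too thinly for a comparison. Of the 75 described members, 35 did not reach 50 UMIs over any pair of libraries in any class, with 4 to 288 UMIs in retained cells. Most beta protocadherins and the neuronal cadherins Cdh8, Cdh12 and Cdh18 were among them. Another 16 reached the minimum in at least 1 class and differed less than 2-fold wherever they did. The gamma genes Pcdhga6, Pcdhgc3 and Pcdhgc5 were among these, at 11.7, 18.7, 16.3 and 22.9 CPM, 8.98, 17.4, 10.5 and 20.6 CPM and 9.21, 16, 14.9 and 17.7 CPM in general capillary cells.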

How the data were processed

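Single-cell RNA-Seq was measured in 4 mouse lung libraries, 1 per group, each from the pooled cells of 3 mice. The authors made the deposited counts, whole numbers of UMIs per gene and cell, with Cell Ranger 7.0.0 on mm10, per the labels. They deposited filtered cell matrices, not normalized. Free RNA was not removed and reads in introns may be included.

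From these counts, the 9514 cells retained had from 200 to 5000 genes, a mitochondrial share of up to 10% and up to 21021 UMIs, the percentile set at 93. Cells were clustered with Seurat 5.3.0 in R 4.3.3 (2000 variable genes without the members, 37 components, resolution 0.5), and endothelial clusters were clustered again (20 components, resolution 0.8). Classes were named from 8 fixed markers per type, and the naming rule was settled after the clusters were seen. An endothelial cluster that fit no other subtype was named general capillary where its general capillary markers stood above those of cells outside the endothelium. They did not need to stand above those of other endothelial cells. The 1211 cells of clusters that met no rule stayed unnamed, among them shallow and haemoglobin-led clusters. Doublets were scored with Scrublet in scanpy 1.11.5, which put 64 cells (0.673%) over 0.25; these stayed in, and an alternative left out the highest 5%.

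UMIs were summed per class and library and divided by the class total (CPM). Ratios are CPM ratios with exact conditional binomial intervals, log2 ratios have 1 UMI added, levels have exact Poisson and shares Clopper-Pearson intervals, all at 95%. The difference of log2 ratios between ages has a normal-approximation interval of the counts. All cover counting error only, and with 1 library per group they do not measure differences between mice. A 0 was set to a floor of 3 UMIs per library for a bound. Gene spans and shared exons came from the GENCODE vM21 annotation. The members and lists were chosen with earlier results of these data known. Members with values in every library were the 6 with the most UMIs in each endothelial class, the 3 in each other class, those past 2-fold in any class, and Cdh5, Cdh1, Pcdhgc4 and Pcdhga12. The Pcdhga6, Pcdhgc3 and Pcdhgc5 levels were added after their values were seen. The calculations were tested on simulated data. Alternatives changed the clustering, cell filters, scaling, thinning, thresholds, free RNA and doublets.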

Additional observations from a re-analysis of the deposited data

Results flagged for a closer look

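In 4 cases the ventilation comparison went in opposite directions in young and aged mice, with both counting intervals leaving out equality. They were picked from all described members in all named classes, where the member had at least 50 UMIs in each comparison. The share of all genes that met the same rule was not counted, so the 4 cases cannot be set against a background. With 1 library per group the difference was not tested against the spread between mice. Pcdh17 in aerocytes had a log2 ratio of 0.54 in young mice and -0.28 in aged mice, a difference of -0.82. Pcdh7 in venous cells had 1.40 and -0.37, a difference of -1.77. Pcdh17 in lymphatic cells had 2.45 and -2.01, a difference of -4.46, and 46 of the 49 UMIs of the young ventilated library came from 3 cells. Cdh5 in nonclassical monocytes had 2.52 and -2.23, a difference of -4.75, and 3 cells held 48 of the 63 UMIs of the young ventilated library. The last did not hold its size: the aged log2 ratio was -0.28 with a mitochondrial limit of 5%, -0.16 in cells thinned to 1000 UMIs and -0.55 without the 5% highest doublet scores, where the young one was 0.59. Without the 3 highest cells of each library, the young and aged log2 ratios were 0.98 and -3.21 for lymphatic Pcdh17 and 1.69 and -2.25 for nonclassical monocyte Cdh5.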

How the results depend on the processing

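No paired analysis was possible because each group was 1 library, and for the same reason no replicate could be left out. The counts below are members past 2-fold. In general capillary cells the reported counts were 10 with ventilation in young mice, 5 in aged mice, 2 with age in nonventilated and 0 in ventilated cells, and in aerocytes they were 3, 0, 0 and 0. With a minimum of 1 UMI they were 30, 22, 16 and 15 in general capillary cells and 24, 25, 23 and 22 in aerocytes, since members with few UMIs then enter. With a minimum of 20 UMIs the age counts of general capillary cells were 4 and 3, and in aerocytes the ventilation counts were 6 and 2 and the age count in ventilated cells 1. At 1.5-fold they were 16, 9, 4 and 4 in general capillary cells, and 2 in aerocytes for ventilation in aged mice and for age in ventilated cells. With cells thinned to 1000 UMIs only 3 members reached the minimum, and the counts that had been above 0 were 0. In ventilated general capillary cells the age count was 1 at cluster resolution 0.8, 2 with a mitochondrial limit of 5% and 1 with the mean of per-cell CPM. In young aerocytes the ventilation count was 1 with the last 2 settings. Without each member's 3 highest cells, an alternative chosen after seeing the data, the aerocyte counts were 1 for ventilation in aged mice and 1 for age in ventilated cells.

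Of the log2 ratios recomputed, 2342 stayed within their counting interval or shifted by no more than its longer side. Another 118 moved further, and 26 that had been past 2-fold changed sign. Settings that changed only a threshold leave the ratios as they were and count among the 2342. Summed levels were recomputed for the members with the most UMIs in the endothelial classes. Of these, 567 stayed within their counting interval, threshold settings included, and 63 moved outside it. Levels in the other classes, and so the order of classes for members such as Cdh1, were not recomputed. At cluster resolution 0.18, alveolar fibroblast Pcdh7 and Pcdh9 became -0.55 and -0.48 with ventilation in young mice. With the 5% mitochondrial limit, alveolar fibroblast Pcdh7 became -2.26, neutrophil Cdh5 -0.38 with ventilation in young mice and 0.38 with age, venous Pcdh7 0.10 with age in ventilated cells and myofibroblast Cdh19 0.63 with ventilation in aged mice. With no UMI limit, dendritic Pcdh7 became -0.012 with age in ventilated cells. Thinning turned 9 ratios: adventitial Pcdhb9 0.82 and alveolar macrophage Cdh1 1.02 with ventilation in aged mice, aerocyte Cdh23 -0.21 and general capillary Pcdhgb5 -0.56 with ventilation in young mice, alveolar fibroblast Pcdhb9 -0.055 and general capillary Pcdhgb5 -2.01 with age in nonventilated cells, and alveolar fibroblast Pcdh17 0.11, alveolar fibroblast Pcdh9 0.11 and myofibroblast Cdh4 -0.60 with age in ventilated cells. Without the 5% highest doublet scores, neutrophil Cdh5 became -1.37 with ventilation in young mice and 0.41 with age, nonclassical monocyte Cdh5 -0.026 with age in nonventilated cells and myofibroblast Cdh19 0.50 with ventilation in aged mice. Without the 3 highest cells, dendritic Pcdh7 became -2.14 with age in ventilated cells, mesothelial Pcdh7 0.70 and 0.16 with ventilation and -0.43 with age, and myofibroblast Cdh19 0.63. Thinning leaves few UMIs. For the others the cause was not tested.

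Cluster resolution 0.18 gave no value for smooth muscle Pcdh7 and 20 principal components none for myofibroblast Cdh4. Of the 78 log2 ratios past 2-fold, 28 stayed past it in either direction under every alternative that gave a value, and 50 did not. Those 28 include general capillary Pcdhgb5 with age in nonventilated cells and alveolar macrophage Cdh1 with ventilation in aged mice. Both turned past 2-fold the other way in thinned cells. Among the steady ones, log2 ratios for ventilation stayed between -3.56 and -2.37 (young) and -2.41 and -1.28 (aged) for general capillary Pcdh12, between -4.15 and -3.05 for young aerocyte Pcdh12, between 1.48 and 2.22 (young) and 1.16 and 1.63 (aged) for general capillary Cdh23, between -2.23 and -1.07 (young) and -2.52 and -1.31 (aged) for smooth muscle Pcdh7, and between -3.86 and -3.14 (young) and -2.36 and -1.30 (aged) for myofibroblast Cdh4. Aged general capillary Pcdhgc4 was past 2-fold in 14 of 21 alternatives, young aerocyte Cdh23 in 13 and young aerocyte Pcdh1 in 16. The 21 include the minimums of 1 and 20 UMIs and the 1.5-fold limit, which change no log2 ratio. Subtracting free RNA could not test its part, since the profiles of 3 libraries held 0% haemoglobin, by which its share was set, and at most 0.0415% of a class was subtracted in the aged nonventilated library. Most members have under 50 UMIs per class and library, which limits what could be compared.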
